A study of Mus musculus with 12 samples.

Results

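The reproductive homeobox genes measured here are 8 X-linked mouse genes, namely Rhox1, Rhox5, Rhox6, Rhox8, Rhox9, Rhox10, Rhox13 and Esx1. They were taken by name, as all probes whose gene name in the scanner files is one of these symbols, and make up 8 of the 36315 genes on the array. Rhox8 had 2 probes and each other gene had 1. RNA was measured on Agilent 1-colour arrays in 4 groups of 3 samples from C57BL/6 mice aged 10 to 11 weeks. GFRα1+ spermatogonia, undifferentiated cells that bear the GDNF receptor subunit, were the GFP+ cells of mice with EGFP knocked into the Gfra1 locus. NGN3+ spermatogonia, which are undifferentiated cells poised to differentiate, were the GFP+/KIT- cells of Ngn3-EGFP transgenic mice, and KIT+ spermatogonia, which have begun differentiation, were the GFP+/KIT+ cells of the same transgenic line, in which GFP outlasts the expression of NGN3. Whole testes came from wild-type littermates of the GFRα1-EGFP mice and hold all later germ cells and the somatic cells. Each GFRα1+ or KIT+ sample was sorted from 1 mouse, each NGN3+ sample was pooled from 2 mice, and a sorted sample held 10000 to 20000 cells. No group had been treated.

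Rhox genes lie in a cluster on the X chromosome and encode transcription factors with a paired-like homeodomain. They are known for selective expression in the testis, epididymis, ovary and placenta, and in the testis some are genes of germ cells and others of Sertoli cells, the somatic cells that enclose the germ cells. Esx1 encodes a related paired-like homeodomain protein, lies elsewhere on the X chromosome, and is known from the placenta and from male germ cells.

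Levels are log2 of the processed spot signal after subtraction of the array's 75th percentile, so a level of 0 equals that percentile. A level says nothing of one gene against another, because probes differ in brightness, and is compared here only between samples. Between 51.1% and 65.8% of an array's probes exceeded background clearly, by the scanner software's flag (called above background from here on), with the lowest shares in GFRα1+ samples, and no spot was saturated. The arrays lay on 3 slides, which are taken as the batches here. All NGN3+ and KIT+ arrays shared a slide with 1 GFRα1+ array, so KIT+ against NGN3+ lies within 1 slide. Comparisons with GFRα1+ cells also cross slides. No whole testes array lay on that shared slide, so NGN3+ and KIT+ cells are compared with whole testes only across slides. The headers give a different version of the scanner software for that slide than for the other slides. Effects of slide and version therefore cannot be told apart from group in those whole testes comparisons. The mean level of Gfra1 was 1.65 in GFRα1+, −1.22 in NGN3+ and −3.38 in KIT+ cells, that of Neurog3 was highest in NGN3+ cells (5.23) and that of Kit in KIT+ cells (4.55), each as the labels say.

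The probes decide what can be said of 3 of these genes, so a stretch of 30 bases of each of their 60-base probes is shown. A long run of the repeat unit GAA, in capitals, fills the brighter Rhox8 probe at chrX:35231462-35231521 (minus strand, mm9), and the dimmer Rhox8 probe at chrX:35227953-35228012 (minus strand, mm9) has no such run and is called the unique probe for that reason alone. Rhox6 and Rhox9 encode closely related proteins, and their probes at chrX:35182945-35183004 (plus strand, mm9) and chrX:35254147-35254206 (minus strand, mm9) are clearly different sequences.
Rhox8 repeat probe: aGAAGAAGAAGAAGAAGAAGAAGAAGAAga
Rhox8 unique probe: aacgcattattttaccacccccctctctca
Rhox6 probe: aggatggcttcttctgagccacccatgatg
Rhox9 probe: caccaggttcacccactctcagctgcgtga
The Rhox6 and Rhox9 probes had the same base at 17 of 60 positions, and at 20 of 59 in the best shift without gaps. The repeat probe held 14 GAA units in a row. Of the others, the files place the probe of Rhox1 at chrX:34753955-34754014 (minus strand), of Rhox10 at chrX:35424740-35424799 (plus strand), of Rhox13 at chrX:35474985-35476295 (plus strand) and of Esx1 at chrX:133649965-133650024 (minus strand), all in mm9. The Rhox13 probe is 60 bases long and spans 1311 bases of the genome, so it crosses an intron. The Rhox5 probe has no coordinates in the files used here. Exon annotation of mm9 was not used here.

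**Figure D1:**
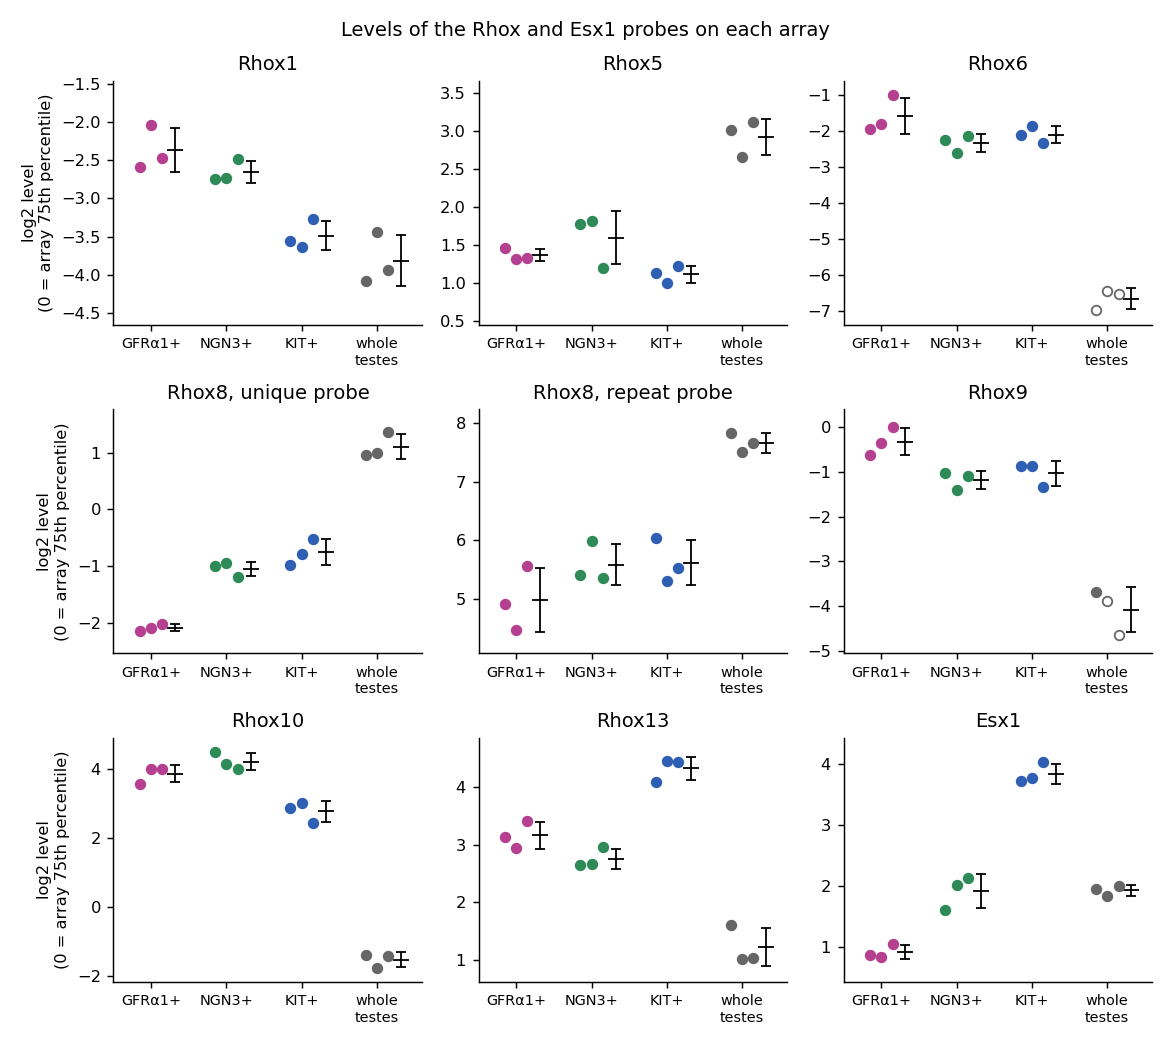
Level of each probe on each of the 12 arrays (y axis, log2 scale, 0 is the array's 75th percentile) by group (x axis). Filled points were well above background and open points were not, and the bars are mean ± SD of 3 arrays. Esx1 is highest in KIT+ cells (3.71 to 4.02), Rhox10 is lowest in whole testes (−1.77 to −1.39), and Rhox6 is not above background on any whole testes array.

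All 8 genes were measured above background on every array of the sorted cells. In whole testes Rhox6 was above background on 0 and Rhox9 on 1 of 3 arrays, and the other 6 genes were above background on all 3. Between NGN3+ and GFRα1+ cells, Esx1 rose, Rhox6 and Rhox9 fell, and no call was made for the other 5 (limma over all genes tested, called at an adjusted p under 0.05). Over all 23794 genes tested in that comparison, 20% were higher and 36.4% lower. Rhox8 is counted here by its repeat probe, and so neither the 1 member that rose nor the 2 that fell is a larger share than the background. Counted by its unique probe, Rhox8 was higher too, which makes 2 of 8 members higher. With the percentile taken over probes above background on all arrays, this split of all genes became 5941 higher and 5937 lower, from 4767 and 8658. Between KIT+ and NGN3+ cells Esx1 and Rhox13 rose and Rhox1 and Rhox10 fell, where 17.5% of 24114 genes were higher and 17% lower, so that 2 of 8 in each direction is near the background. Between KIT+ and GFRα1+ cells Esx1 and Rhox13 were higher and Rhox1, Rhox9 and Rhox10 lower, where 26.6% of 23005 genes were higher and 39.5% lower. By its unique probe Rhox8 was higher there as well. The median log2 ratio of the 8 genes was −0.03, 0.09 and −0.38 in these comparisons, beside −0.19, 0.05 and −0.16 over all genes tested. The genes thus did not move as a block, and each is described on its own. In bulk samples such as these, fewer cells of a type and less RNA per cell cannot be told apart.

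**Figure D2:**
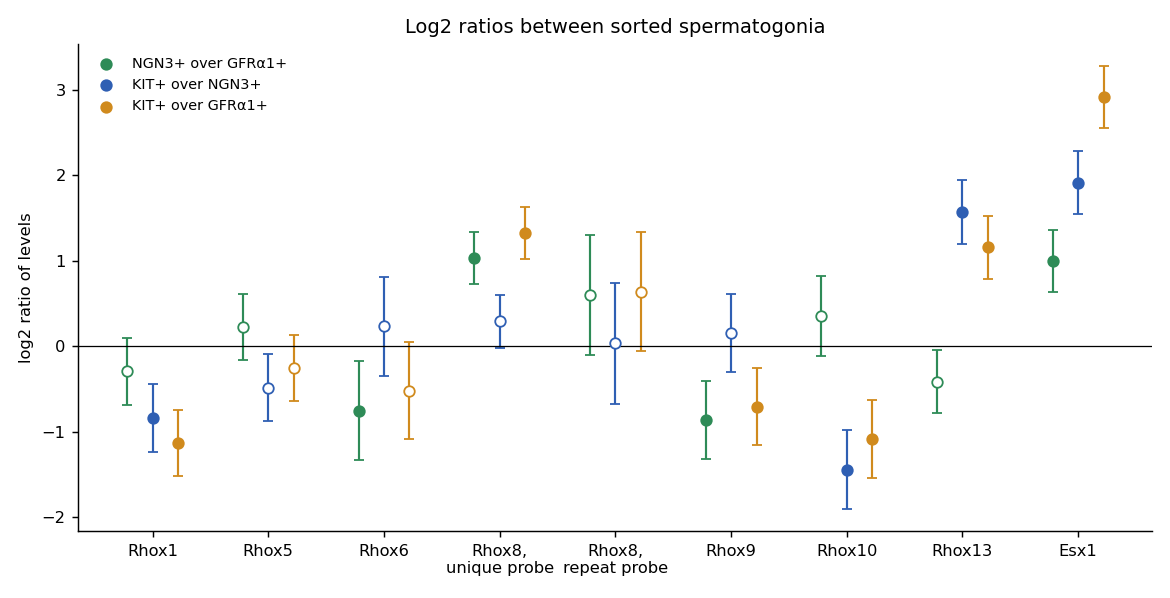
Log2 ratio of levels between sorted groups (y axis) for each member probe (x axis), with 95% confidence intervals of the fit over 9 arrays. Filled points passed an adjusted p under 0.05. Esx1 lies above 0 in all 3 comparisons, Rhox13 and Rhox10 move in opposite directions from NGN3+ to KIT+ cells (1.57 and −1.44), and the repeat probe of Rhox8 passed in none.

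Esx1 rose at each step from GFRα1+ to NGN3+ and from NGN3+ to KIT+ cells. Its level was 0.87, 0.84 and 1.06 in GFRα1+ cells, 1.60, 2.02 and 2.14 in NGN3+ cells, 3.71, 3.77 and 4.02 in KIT+ cells and 1.95, 1.84 and 2.01 in whole testes. The sorted groups did not overlap and were ordered GFRα1+, NGN3+, KIT+, while NGN3+ cells and whole testes overlapped. From GFRα1+ to NGN3+ cells Esx1 rose by 1.0 ± 0.16 on the log2 scale (SE, limma adjusted p = 0.00094), or 2.0-fold. From NGN3+ to KIT+ cells it rose by a further 1.91 ± 0.16 (SE, limma adjusted p = 6.9e-05), or 3.77-fold. Within the slide that holds both groups, where 1 GFRα1+ array stands for its group, the first of these ratios was 0.87 (limma adjusted p = 0.030) and that of KIT+ to GFRα1+ cells 2.78 (limma adjusted p = 0.00014).

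Rhox13, known as a germ cell gene whose protein is found in spermatogonia and early spermatocytes, was also highest in KIT+ cells. Its level was 3.13, 2.95 and 3.41 in GFRα1+ cells, 2.64, 2.67 and 2.95 in NGN3+ cells, 4.09, 4.45 and 4.43 in KIT+ cells and 1.60, 1.02 and 1.04 in whole testes. KIT+ cells stood above every other array, whereas GFRα1+ and NGN3+ cells overlapped. From NGN3+ to KIT+ cells Rhox13 rose by 1.57 ± 0.16 on the log2 scale (SE, limma adjusted p = 0.00019), a 2.97-fold change, and KIT+ cells were 2.24-fold above GFRα1+ cells (limma adjusted p = 0.00024). The ratio of NGN3+ to GFRα1+ cells was −0.41, with a 95% interval of −0.78 to −0.04 and an adjusted p of 0.057 in limma. It was −0.66 both within the shared slide and with slide as a block. Both values rest on GFRα1+ replicate 3, the highest array of its group. Where a probe had to be above background on every array compared, the ratio was −0.41 and passed (limma adjusted p = 0.044). Whether Rhox13 is lower in NGN3+ than in GFRα1+ cells therefore depends on the setting.

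Esx1 and Rhox13 are the members that rose from NGN3+ to KIT+ cells, and Rhox10 fell at that step. The 250 bases before the annotated start are shown for these 3 genes (RefSeq, GRCm38.p6), with CpG dinucleotides in capitals for Esx1 and Rhox13. They lie at chrX:137120327-137120576 on the minus strand for Esx1 and at chrX:38120590-38120839 on the plus strand for Rhox13.
Esx1: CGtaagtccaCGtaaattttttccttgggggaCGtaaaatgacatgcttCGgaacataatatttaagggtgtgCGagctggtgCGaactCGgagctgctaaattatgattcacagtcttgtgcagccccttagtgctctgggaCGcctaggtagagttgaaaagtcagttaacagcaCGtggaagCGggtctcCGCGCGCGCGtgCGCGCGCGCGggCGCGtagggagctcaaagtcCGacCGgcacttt
Rhox13: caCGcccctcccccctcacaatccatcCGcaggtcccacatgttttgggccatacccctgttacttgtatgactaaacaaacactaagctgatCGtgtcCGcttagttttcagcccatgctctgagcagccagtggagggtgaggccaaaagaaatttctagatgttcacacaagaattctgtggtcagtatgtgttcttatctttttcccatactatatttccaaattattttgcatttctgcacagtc
The Esx1 stretch held 24 CpG and that of Rhox13 held 4, beside a median of 6 over 32851 promoters of the same length, of which 92.1% had at least 1. A GATA motif (letters GATA on either strand) was found 0 times in Esx1 and 1 time in Rhox13, and 53.6% of promoters held it. Each had 1 E-box (letters CANNTG, the same on both strands), a motif in 66.2% of promoters, and the E-box of Esx1 contains a CpG. The 2 genes that rose together thus had unlike sequences here. Promoters of 5 of the 8 genes were in the table used.

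Rhox10, known for its role in forming the spermatogonial stem cell pool, was high in undifferentiated cells of both kinds and fell in KIT+ cells. Its level was 3.57, 3.99 and 3.99 in GFRα1+ cells, 4.49, 4.14 and 3.99 in NGN3+ cells, 2.87, 3.01 and 2.42 in KIT+ cells and −1.39, −1.77 and −1.42 in whole testes. GFRα1+ and NGN3+ cells overlapped, every KIT+ array was below both, and whole testes were far below all sorted cells. From NGN3+ to KIT+ cells Rhox10 fell by 1.44 ± 0.20 on the log2 scale (SE, limma adjusted p = 0.00086), a 2.71-fold change, and KIT+ cells were 1.08 ± 0.20 below GFRα1+ cells (SE, limma adjusted p = 0.0013). The ratio of NGN3+ to GFRα1+ cells was 0.36 (95% interval −0.10 to 0.82, adjusted p = 0.16 in limma). Under quantile normalization it was 0.60 and passed the test (limma adjusted p = 0.027), and with the percentile taken over probes above background on all arrays it was 0.54 (limma adjusted p = 0.043). The stretch before the Rhox10 start, at chrX:38066225-38066474 on the plus strand (GRCm38.p6), is shown with GATA motifs in capitals, read as TATC where they lie on the other strand.
Rhox10: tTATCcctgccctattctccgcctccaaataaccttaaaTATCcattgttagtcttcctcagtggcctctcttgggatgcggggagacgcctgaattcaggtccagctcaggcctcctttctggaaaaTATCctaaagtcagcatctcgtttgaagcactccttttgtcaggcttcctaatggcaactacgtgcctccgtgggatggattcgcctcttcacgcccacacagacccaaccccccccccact
It held 3 GATA motifs, 8 CpG and 0 E-boxes, none of which overlapped. The letters AGGTCA and TATAA, searched on both strands, were in none of the 3 stretches and are in 14% and 22.8% of all promoters.

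Rhox6 and Rhox9, known from the placenta and from germ cells, shared their order of groups. The level of Rhox9 was −0.61, −0.35 and −0.00 in GFRα1+ cells, −1.03, −1.41 and −1.10 in NGN3+ cells, −0.88, −0.86 and −1.35 in KIT+ cells and −3.69, −3.89 and −4.66 in whole testes. Every GFRα1+ array was above every NGN3+ and KIT+ array, and NGN3+ and KIT+ cells overlapped. From GFRα1+ to NGN3+ cells Rhox9 fell by 0.86 ± 0.20 on the log2 scale (SE, limma adjusted p = 0.0064) and was 0.71 ± 0.20 lower in KIT+ than in GFRα1+ cells, or 1.63-fold lower (SE, limma adjusted p = 0.012). The second call was lost under the t-test that the study's methods name (adjusted p = 0.067, in place of limma). Within the shared slide the first of these ratios was −1.18 and the second −1.02. These 2 values rest on GFRα1+ replicate 3 alone, the highest array of its group.

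Rhox6 had levels of −1.93, −1.80 and −1.01 in GFRα1+ cells, −2.25, −2.62 and −2.13 in NGN3+ cells, −2.10, −1.86 and −2.32 in KIT+ cells and −6.99, −6.46 and −6.53 in whole testes, where it was not well above background. GFRα1+ replicate 3 was the highest array, and GFRα1+ and KIT+ cells overlapped. Rhox6 fell by 0.75 ± 0.25 on the log2 scale from GFRα1+ to NGN3+ cells (SE, limma adjusted p = 0.033). The call was lost under the t-test that the study's methods name (adjusted p = 0.13, in place of limma). It was also lost with the percentile over probes above background on all arrays and with no filter on dim probes (limma adjusted p = 0.088 and 0.051). Without GFRα1+ replicate 3 Rhox6 fell by 0.46 and no longer passed (limma adjusted p = 0.066). Without NGN3+ replicate 1 or 2 the adjusted p was 0.059 or 0.12 in limma. Within the shared slide, where GFRα1+ replicate 3 is the GFRα1+ array, the ratio was −1.32. The ratio of KIT+ to GFRα1+ cells was −0.51 (95% interval −1.09 to 0.06, adjusted p = 0.10 in limma), and it was −1.09 within the shared slide, where it passed (limma adjusted p = 0.0099).

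Rhox1, which lies at one end of the cluster, was dim but above background on all 12 arrays. Its level was −2.58, −2.03 and −2.47 in GFRα1+ cells, −2.74, −2.73 and −2.48 in NGN3+ cells, −3.55, −3.64 and −3.27 in KIT+ cells and −4.08, −3.44 and −3.93 in whole testes. All undifferentiated cells were above all KIT+ cells, and KIT+ cells overlapped with whole testes. Rhox1 fell by 0.84 ± 0.17 on the log2 scale from NGN3+ to KIT+ cells (SE, limma adjusted p = 0.0056), a 1.79-fold change, and the ratio of NGN3+ to GFRα1+ cells was −0.29 (adjusted p = 0.18 in limma). Against GFRα1+ cells KIT+ cells were 2.18-fold lower (limma adjusted p = 0.00039), and the log2 ratio within the shared slide was −1.02 (limma adjusted p = 0.0051).

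Rhox5, the founding member of the family and an androgen-responsive gene of Sertoli cells, passed the test in no comparison of sorted cells in the main fit. Its level was 1.46, 1.31 and 1.33 in GFRα1+ cells, 1.78, 1.81 and 1.2 in NGN3+ cells, 1.13, 1.0 and 1.22 in KIT+ cells and 3.00, 2.65 and 3.11 in whole testes. Whole testes were above all sorted cells, KIT+ cells were below all GFRα1+ cells, and NGN3+ replicate 3 was below the other NGN3+ arrays. The ratio of KIT+ to NGN3+ cells was −0.48 (95% interval −0.87 to −0.10, adjusted p = 0.057 in limma). It passed the test under quantile normalization, with the percentile over probes above background and under normexp correction (limma adjusted p = 0.040, 0.039 and 0.028). Without NGN3+ replicate 3 it was −0.68 (limma adjusted p = 0.0038). The ratio of NGN3+ to GFRα1+ cells was 0.23 (adjusted p = 0.27 in limma), and without that replicate it was 0.43 and passed (limma adjusted p = 0.019). The ratio of KIT+ to GFRα1+ cells was −0.25 (adjusted p = 0.21 in limma) and passed under normexp correction at −0.35 (limma adjusted p = 0.047).

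Rhox8, like Rhox5 a gene known from Sertoli cells, gave different answers with its probes. The unique probe read −2.14, −2.09 and −2.03 in GFRα1+ cells, −1.0, −0.95 and −1.19 in NGN3+ cells, −0.97, −0.78 and −0.52 in KIT+ cells and 0.96, 0.99 and 1.36 in whole testes. On this probe GFRα1+ cells were lowest and whole testes highest, with no overlap, while NGN3+ and KIT+ cells overlapped. It was higher in NGN3+ than in GFRα1+ cells by 1.03 ± 0.14 on the log2 scale (SE, limma over all probes, adjusted p = 0.00032) and in KIT+ than in GFRα1+ cells by 1.33 ± 0.13 (SE, limma over all probes, adjusted p = 3.4e-05). The repeat probe, which by its higher mean stood for the gene in the counts above, read 4.91, 4.47 and 5.55 in GFRα1+ cells, 5.40, 5.98 and 5.36 in NGN3+ cells, 6.04, 5.30 and 5.52 in KIT+ cells and 7.84, 7.51 and 7.66 in whole testes. All sorted groups overlapped on it, and its ratio of NGN3+ to GFRα1+ cells was 0.61 (adjusted p = 0.12 in limma) and 0.03 within the shared slide.

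On the array 29 probes hold at least 10 units of this repeat in a row, and the other 28 carry names of other genes. The group means of those 28 ran from 4.02 to 6.30 in GFRα1+ cells, 4.15 to 6.45 in NGN3+ cells, 3.95 to 6.48 in KIT+ cells and 6.62 to 7.99 in whole testes. All were well above background on all 12 arrays. The Rhox8 repeat probe, with means of 4.98, 5.58, 5.62 and 7.67, lay inside each range. The level it reads cannot be told apart from that of the repeat, and a sequence search of the genome was not made here.

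**Figure D3:**
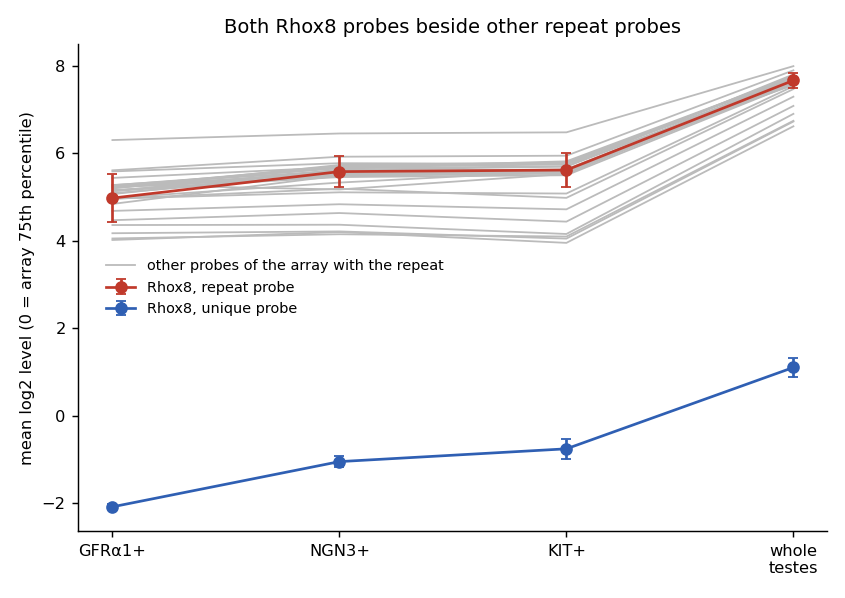
Mean level of the Rhox8 repeat probe, the Rhox8 unique probe and the 28 other probes with the same repeat (y axis, log2 scale, 0 is the array's 75th percentile) in each group (x axis), with SD of 3 arrays for the Rhox8 probes. The repeat probe runs among the other repeat probes, and the unique probe rises from −2.08 in GFRα1+ cells to 1.1 in whole testes.

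Many markers of Sertoli cells moved in the direction of the Rhox8 unique probe at the first step. Of 27 markers, 21 were tested between NGN3+ and GFRα1+ cells, and 15 were higher and 2 lower. Their median log2 ratio was 1.15, beside −0.19 over all genes, and 20% of all genes with a test were higher. Of the 27 markers, 15 were above background on all 3 GFRα1+ arrays and 21 on all 3 NGN3+ arrays. Some markers therefore entered the test through NGN3+ cells alone. Between KIT+ and NGN3+ cells 1 marker was higher and 3 were lower. Cst12, a cystatin gene, was 3.46 higher and Cst9 4.34 higher in NGN3+ than in GFRα1+ cells on the log2 scale. The markers' summed signal, on the log2 scale, ran from 6.17 to 6.45 in GFRα1+, 5.98 to 6.34 in NGN3+, 5.99 to 6.21 in KIT+ cells and 8.64 to 8.83 in whole testes, so the sums of the sorted groups overlapped. Fshr, the receptor for follicle-stimulating hormone and a defining Sertoli gene, was above background on all whole testes arrays and on no sorted array. Amh and Vnn1 were above background on no array, and Sox9, on 2 of 3 GFRα1+ arrays and all other arrays, had means of −3.56, −3.87 and −4.07 in the sorted groups and −1.31 in whole testes. Other defining genes were among the 15 that were higher. The mean of Wt1 was 1.06 in GFRα1+ and 1.71 in NGN3+ cells, that of Gata4 −2.79 and −1.64, and that of Inha −3.98 (above background on 2 of 3 arrays) and −0.99. The defining genes named here were picked from the list after its values were seen. The part of Sertoli cell RNA in the levels of Rhox5 and Rhox8 was not tested.

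Markers of other cells moved as well. The array carried 20 spermatid markers, and from GFRα1+ to NGN3+ cells all 20 rose (median log2 ratio 5.22). On all 3 GFRα1+ arrays 16 of these markers were above background, and on all 3 NGN3+ arrays 20, so some entered the test through NGN3+ cells alone. From NGN3+ to KIT+ cells limma called 0 of them, and 0 had an unadjusted p under 0.05. Of 8 markers of peritubular myoid cells 7 were higher at the first step. Of the 8, 4 were above background on all 3 GFRα1+ arrays and 8 on all 3 NGN3+ arrays. Of 22 markers of spermatogonia 4 were higher and 12 lower at the first step, and 5 were higher and 14 lower at the second. At that second step, where Rhox10 and Rhox1 fell, 5 of the 8 myoid markers were lower (median log2 ratio −1.47), as were 4 of 10 markers of macrophages and endothelium, and the rest of both lists were not called. Their part in those falls was not tested. The spermatid markers' summed signal ran from 5.36 to 6.30 in GFRα1+, 10.50 to 10.82 in NGN3+, 10.78 to 11.13 in KIT+ cells and 12.70 to 12.98 in whole testes on the log2 scale. Esx1 rose where these markers rose and again from NGN3+ to KIT+ cells, where they did not pass the test. It was 3.75-fold higher in KIT+ cells than in whole testes, in which the spermatid markers were higher still. The part of spermatid RNA in the first rise was not tested.

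Against whole testes, 5 members were higher in each sorted group. Of these 5, Rhox6 and Rhox9 entered the tests through the sorted cells alone. Where a probe had to be above background on every array compared, 6 members were tested and 3 were higher in each sorted group. All 3 comparisons use the same whole testes arrays, so their results are not independent of each other. In GFRα1+ cells 5 members were higher and 3 lower, where 49.9% of 24186 genes tested were higher and 37.5% lower. NGN3+ cells had 5 higher and 2 lower, where 44.1% of 25344 genes were higher and 39.6% lower. KIT+ cells likewise had 5 higher and 2 lower, where 43.3% of 24696 genes were higher and 41.6% lower. The median log2 ratio of the 8 genes was 1.70, 1.35 and 2.48, beside 0.39, 0.13 and 0.05 over all genes tested. Slide as a block left these counts of members as they were. NGN3+ and KIT+ cells share no slide with whole testes, so that fit links them to whole testes only through GFRα1+ arrays. Under it the log2 ratio of NGN3+ cells to whole testes went from 1.53 to 0.78 for Rhox13 and from 1.17 to 1.60 for Rhox1.

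Rhox10 was far above whole testes in every sorted population. It was 41.5-fold higher in GFRα1+, 53.2-fold in NGN3+ and 19.6-fold in KIT+ cells (limma adjusted p = 4.7e-10, 2.6e-09 and 7.1e-09). Rhox13 was 3.85-fold, 2.89-fold and 8.61-fold higher (limma adjusted p = 1.4e-06, 1.6e-05 and 4.6e-08). For genes below background in whole testes only a bound can be given, computed against the lowest level well above background on each whole testes array or the probe's own level where higher. By that bound Rhox6 was at least 8.32-fold higher in GFRα1+, 4.94-fold in NGN3+ and 5.82-fold in KIT+ cells, and Rhox9 at least 13.2-fold, 7.28-fold and 8.09-fold. The 4 genes of this paragraph were higher in all 3 sorted populations.

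Rhox1 was 2.75-fold higher than whole testes in GFRα1+ cells and 2.25-fold in NGN3+ cells (limma adjusted p = 2.4e-05 and 0.00019), and its ratio in KIT+ cells was 0.33 on the log2 scale (95% interval −0.10 to 0.77, adjusted p = 0.14 in limma). Esx1 ran the other way among the sorted cells. It was 2.02-fold lower than whole testes in GFRα1+ cells, differed by −0.01 on the log2 scale in NGN3+ cells (95% interval −0.34 to 0.32) and was 3.75-fold higher in KIT+ cells (limma adjusted p = 3.3e-07). Rhox5 and Rhox8, the members known from Sertoli cells, were lower in every sorted population. Rhox5 was 2.94-fold, 2.51-fold and 3.50-fold lower in GFRα1+, NGN3+ and KIT+ cells (limma adjusted p = 5.4e-06, 2.9e-05 and 2.0e-06). The unique probe of Rhox8 differed by −3.19, −2.15 and −1.86 on the log2 scale (limma over all probes, adjusted p = 2.4e-09, 1.3e-07 and 3.8e-07). Over 24 to 25 Sertoli markers tested against whole testes, the median log2 ratio was −3.84, −2.96 and −2.79 in the same order.

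**Figure D4:**
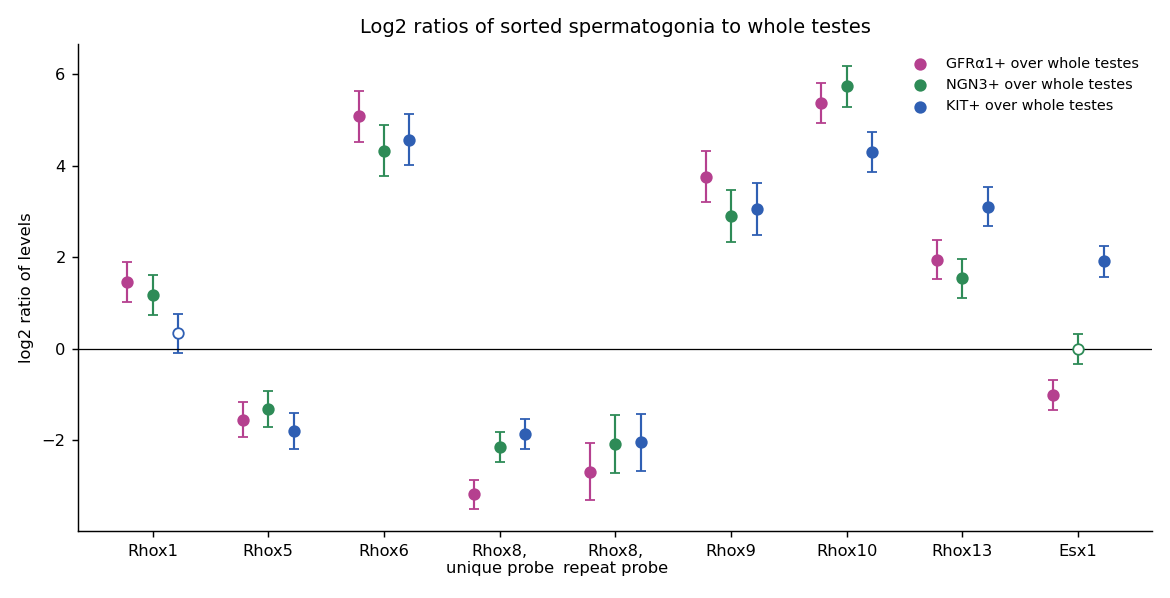
Log2 ratio of each sorted group to whole testes (y axis) for each member probe (x axis), with 95% confidence intervals of the fit over 12 arrays. Filled points passed an adjusted p under 0.05. Rhox10 lies at 5.38, 5.73 and 4.29, and the points of Rhox6 and Rhox9 are measured ratios against probes mostly below background in whole testes, for which the text gives bounds.

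The array carried 17 other Rhox genes and pseudogenes, and 14 were tested between sorted groups. Their commonest pattern was a fall from GFRα1+ to NGN3+ cells, with 11 lower, 2 higher and Rhox3b not called (median log2 ratio −1.16, beside −0.19 over all genes). From NGN3+ to KIT+ cells 4 were higher and no call was made for the other 10 (median 0.34). Under quantile normalization, the percentile over probes above background, normexp correction and the shared slide alone, 10 to 11 were lower and 2 higher at the first step. Rhox12, Rhox3g and Rhox3d-ps were not above background in any group. Copies of Rhox2, Rhox3 and Rhox4 are near-identical genes, and probes named Rhox3f and Rhox3h or Rhox4a and Rhox4g shared 58 of 60 bases, so which of those copies such a probe reads is uncertain. Probes of Rhox4a and Rhox4e had 14 of 60 bases in common position by position, those of Rhox2c and Rhox2h 18 and those of Rhox2c and Rhox2e 14.

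Rhox2c, Rhox2e and Rhox2h fell and then rose, while the pseudogene Rhox2-ps fell by 0.47 on the log2 scale (limma adjusted p = 0.0085) and had a ratio of 0.04 at the second step. Rhox2c had mean levels of 3.90 in GFRα1+, 2.59 in NGN3+ and 3.70 in KIT+ cells and −0.02 in whole testes, falling by 1.31 and rising by 1.11 on the log2 scale (limma adjusted p = 2.6e-05 and 0.00017). Rhox2e and Rhox2h had the same shape, with ratios of −1.36 and −1.24 at the first step and 1.23 and 1.0 at the second. Rhox13, described above, had a dip in the same place that passed the test under some settings. Rhox4 copies fell without a recovery that passed the test, and Rhox4g had means of 1.53, −0.19 and 0.13 in the sorted groups and −2.70 in whole testes. Rhox3 copies followed Rhox4 among sorted cells yet were highest in whole testes, as for Rhox3a with means of 0.21, −0.92 and −0.72 and of 2.14 in whole testes. The ratio of Rhox3b at the first step was −1.15 and did not pass (adjusted p = 0.10 in limma). Its GFRα1+ arrays (−2.59 to −2.29) and NGN3+ arrays (−3.94 to −3.40) did not overlap. The spread in that fit also takes in KIT+ cells, where replicate 1 read −1.26 and the others −3.69 and −3.43.

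Rhox11 and the pseudogene Rhox11-ps2 were the 2 of these 14 that were higher in NGN3+ cells, the direction of the unique probe of Rhox8. Rhox11 was not above background in GFRα1+ cells and had means of −2.47 in NGN3+, −1.86 in KIT+ cells and 0.80 in whole testes. It was at least 3.66-fold higher in NGN3+ than in GFRα1+ cells (limma adjusted p = 2.1e-06) and rose by 0.62 on the log2 scale from NGN3+ to KIT+ cells (limma adjusted p = 0.025). Rhox11-ps2 rose by 2.33 at the first step (limma adjusted p = 8.0e-05). Rhox7a had 2 probes. The brighter had means of −0.47, −0.97 and −1.25 in the sorted groups and was not above background in whole testes, which GFRα1+ cells exceeded at least 18.0-fold on that probe. The dimmer had means of −1.41, −1.76 and −2.10 and was above background on 1 of 3 whole testes arrays, with a measured log2 ratio of GFRα1+ cells to whole testes of 2.80, so the probes gave the same direction and different sizes.

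**Figure D5:**
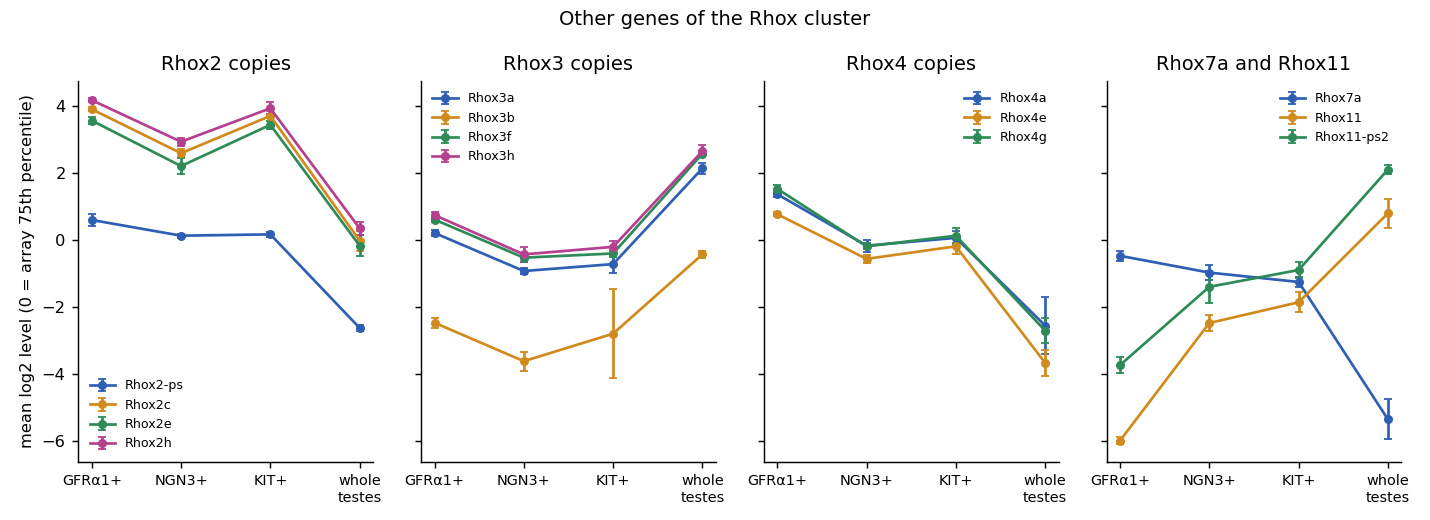
Mean level of the 14 other Rhox genes tested (y axis, log2 scale relative to each array's 75th percentile) by group (x axis), with SD of 3 arrays. Rhox2c, Rhox2e and Rhox2h dip in NGN3+ cells and Rhox2c returns from 2.59 to 3.70, Rhox4 copies fall and stay low, and Rhox11 rises from GFRα1+ cells to whole testes.

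Genes around the Rhox cluster that are no Rhox genes were also mostly lower in NGN3+ than in GFRα1+ cells. Of 38 genes in the interval chrX:34253955-35976295 (mm9), which reaches 500 kb to either side of the outermost member probes there, 27 were tested, 21 were lower and 2 higher (median log2 ratio −0.63). Upf3b, a factor of nonsense-mediated mRNA decay, fell by 3.01 (limma adjusted p = 2.5e-06), and Nkap and Rpl39 fell by 1.88 and 1.44. Akap14 and Btg1b were the genes that were higher. From NGN3+ to KIT+ cells 4 were higher and 6 lower (median 0.02). Within the shared slide 13 were lower and 3 higher at the first step. On the whole X chromosome 1030 genes were tested at that step, 214 were higher and 438 lower (median −0.28).

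Other X-linked genes known from spermatogonia were mostly lower at the first step, unlike the 8 members. Of 27 tested, 20 were lower and 3 higher (median log2 ratio −0.72), where 36.4% of all genes were lower, and 9 were higher and 4 lower in KIT+ than in NGN3+ cells. Tex13b fell by 1.87 and then rose by 1.25 on the log2 scale, the shape of Rhox2c. Tex13a, Fthl17a and Dusp21 were those higher at the first step, at least 53.8-fold, 16.5-fold and 8.36-fold. None of them was above background on all 3 GFRα1+ arrays, so they entered the test through NGN3+ cells alone. Of 16 X-linked spermatid genes, 11 were higher and the other 5 not called at that step (median 3.32). Of the 16, 10 were above background on all 3 GFRα1+ arrays and 16 on all 3 NGN3+ arrays.

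Paired-like homeobox genes elsewhere in the genome gave a count that turned with the scaling. Of 17 tested between NGN3+ and GFRα1+ cells, 5 were higher and 3 lower, against 0 and 6 under normexp correction (median log2 ratio −0.17 in place of 0.32) and 3 and 4 under quantile normalization. Prrx2 fell by 3.20 on the log2 scale (limma adjusted p = 1.6e-06) and had a ratio of 0.24 at the second step (adjusted p = 0.14 in limma). Phox2a fell by 1.18 and rose by 1.27, and Otx2 rose by 0.47 and fell by 1.41. The X-linked homeobox gene Tgif2lx1 rose by 2.20 on the log2 scale from GFRα1+ to NGN3+ cells (limma adjusted p = 0.00066). Tgif2lx1 is also among the X-linked spermatid genes counted above.

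Genes reported in the literature to regulate Rhox genes were split as well. Of 17 tested at the first step, 9 were higher and 7 lower, and at the second 4 were higher and 4 lower. Uhrf1, which directs maintenance of DNA methylation, fell by 1.07 and rose by 0.76 on the log2 scale (limma adjusted p = 7.6e-05 and 0.00096). Gata1 and Gata2, which encode GATA factors, both rose at the first step, Gata1 at least 4.90-fold and Gata2 by 1.68 on the log2 scale. Gata1 is also a Sertoli cell marker, and was counted among the markers above.

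The genes whose levels ran most like each member over the 12 arrays were found by Pearson's r among 18408 genes. Such a gene had to be above background on every array of some group, and could be below background in other groups. Edn1, named below, had means of −6.13, −5.91 and −6.79 in the sorted groups and −2.77 in whole testes. These correlations are a description, since the arrays share their groups. Rhox10 was most like Ttc3, Stau1 and Lin28a (r = 0.998), and Lin28a, an RNA-binding protein gene of undifferentiated spermatogonia, had means of 4.69, 5.11 and 3.46 in the sorted groups. Rhox13 was most like Rbp4, Ext2 and Rbbp8 (r from 0.994 to 0.995), and Esx1 most like Gfer, Cited1 and Cpne2 (r from 0.986 to 0.988), of which Cited1 is X-linked and rose from 2.74 in GFRα1+ to 6.39 in KIT+ cells. Rhox9 was most like Ppp4r1l-ps, Orc6 and Gm6723 (r = 0.991), Rhox6 most like Shq1, Sestd1 and Gm4532 (r from 0.996 to 0.997), and Rhox1 most like Grm3, Adat1 and Cd101 (r from 0.952 to 0.957). Rhox5 was most like Edn1, Slc7a4 and Itpr2 (r from 0.984 to 0.985), and the unique probe of Rhox8 most like Slc13a2, St8sia2 and Asns (r from 0.992 to 0.993). The repeat probe of Rhox8 was most like Gcm1 and Dcc (r = 0.993), both represented by repeat probes themselves, and Gm2102 (r = 0.992), which is not.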

How the data were processed

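RNA of 12 samples was labelled (25 ng, Cy3) and hybridised to Agilent 1-colour arrays. The authors extracted spot values with Agilent Feature Extraction 10.7.3.1, per the submitters' processing notes (file headers also give 10.7.1.1), and deposited a linear intensity per spot, from which background had been subtracted, together with quality flags. A log2 table deposited by the authors differs from log2 of these intensities by one constant per array: on every array 100% of probes lay within 0.01 of a constant difference. Its column medians ran from −3.84 to −3.44, and genes were not centred.

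Levels were log2 intensities less the 75th percentile of their array, without control spots and without 103 to 161 outlier spots per array. The 75th percentile was 318 to 675 on the intensity scale. The 55681 probes were named by accession (26413), symbol (3859) or synonym (735) through RefSeq genes of GRCm38.p6, and 24674 kept the name in the files. The probe with the highest mean stood for its gene. Genes entered a test only if flagged above background throughout (3 of 3 arrays) in either group compared.

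Comparisons used limma 3.58.1 in R 4.3.3 with Benjamini-Hochberg adjustment over all genes tested, and calls were made at 0.05. Comparisons among sorted cells were fitted on their 9 arrays, and those with whole testes on 12. Groups and replicates come from the labels. With 3 arrays against 3 an exact permutation test cannot go below p = 0.1, and the number of arrays limits the precision. Sums of marker signals were taken on the linear scale after the percentile was removed. The script was tested on simulated data. Members and gene lists were chosen with earlier results of these data known, as was the rule for the genes named: all members, every other Rhox gene above background, up to 4 genes of each list by smallest adjusted p, called genes near the cluster, the 3 genes most like each member probe, and Gfra1, Neurog3 and Kit.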

Additional observations from a re-analysis of the deposited data

How the results depend on the processing

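The 60 results had 1404 values under the alternatives, and 1345 of these were rated as kept. Of the others, 27 came to pass the test, 7 no longer passed, 16 counts moved and 9 values changed sign. A ratio was kept if it held its direction and its side of the threshold. A count of members was also rated as kept after a small change, as from 2 to 3 or from 3 to 4. Members lower than in GFRα1+ cells rose by such a step with slide as a block. The calls of Esx1, Rhox10 and Rhox13 between KIT+ and NGN3+ cells held under every alternative run. Between NGN3+ and GFRα1+ cells, members higher went from 1 to 2 under quantile normalization, under the percentile over probes above background on all arrays, with the median over probes of a gene and with the other Rhox8 probe (an alternative chosen after seeing the data). Members lower went from 2 to 1 under that percentile, with no filter on dim probes and with the methods' t-test. Leaving out single replicates gave 1 to 2 members higher and 1 to 3 lower. Between KIT+ and GFRα1+ cells 5 members in place of 3 were lower under normexp correction. Against whole testes 3 members in place of 5 were higher in each sorted group when a probe had to be above background on every array compared, because 6 members are then tested. The values that changed sign did not pass where they did so: Rhox8 in KIT+ over NGN3+ cells was −0.0081 under the percentile over probes above background (leaving out single replicates, −0.17 to 0.24), Esx1 in NGN3+ cells over whole testes was 0.23 under normexp (−0.12 to 0.15), and Rhox1 in KIT+ cells over whole testes was −0.14 under normexp (0.20 to 0.52, passing without whole testes replicate 2 at a limma adjusted p of 0.025). The cause of these changes was not tested.

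The labels number the replicates. Deviations from the group means had correlations from −0.58 to 0.29 over 17640 genes between samples of the same number. The numbers were not taken as pairs in the main fit, and these correlations cannot settle whether samples of the same number share mice. With the replicate block, Rhox13 in NGN3+ over GFRα1+ cells, at −0.41, passed the test (limma adjusted p = 0.044), and no other member changed its call. Over all genes, the percentile over probes above background moved the median ratio of NGN3+ to GFRα1+ cells from −0.19 to −0.01, and moved that of KIT+ to GFRα1+ cells to −0.02 and those of GFRα1+, NGN3+ and KIT+ cells to whole testes to −0.02, −0.10 and −0.21. Signal near background limits Rhox6 and Rhox9 in whole testes.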
